A study of Danio rerio with 26 samples.

Results

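Of the 25975 open chromatin sites in the consensus peak set of the early zebrafish embryo, 454 lay on unplaced scaffolds, that is, on sequences of the Zv10 assembly that are named but belong to none of chromosomes 1 to 25. The members are all peaks whose sequence name is not one of these chromosomes, and every one of them carried a name beginning with chrUn_KN. They were found on 248 different scaffolds and made up 1.75% of the set (95% Wilson interval 1.60 to 1.91%, which covers counting error only). Together they covered 160 kb, against 8.77 Mb under the 25521 peaks on chromosomes. The peaks stem from ATAC-seq of wild-type whole embryos freed of yolk, with 17 libraries from 256-cell, high, oblong, sphere, dome, shield and 80% epiboly embryos and 2 or 3 libraries per stage. The other 9 libraries of the series, from MZpou5f3, MZsox19b, MZnanog and α-amanitin-injected embryos at oblong stage and from naked genomic DNA, have no values of their own in the list. The list holds 1 set of positions merged over the wild-type stages. It has no signal, stage or library, so neither the depth behind a peak nor any change from stage to stage could be examined.

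An unplaced scaffold is a piece of assembled genome whose neighbours on a chromosome are not known. Such pieces are often short and rich in repeated or duplicated sequence, which keeps an assembler from joining them to a chromosome. In ATAC-seq the Tn5 transposase cuts DNA that is not wrapped in nucleosomes, and short fragments pile up at active promoters and enhancers and at other sites bound by proteins. Reads that fit several places in the genome tend to receive a low mapping quality, and the authors kept only alignments above a quality limit. A repeated stretch can therefore be open and still give no peak. The authors name the removal of reads with several mappings only for their differential analysis. Whether all such reads were absent at peak calling is not stated. No sequence or annotation of Zv10 was used here, so no member is assigned to a gene, a promoter or a repeat, and no sequence is shown. All positions below are on Zv10 and counted from base 1.

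Most scaffolds of the list held a single accessible site. Of the 248 scaffolds, 137 had 1 peak, 59 had 2, 23 had 3, 20 had 4, 5 had 5, 3 had 6 and 1 had 7. The mean was 1.83 ± 1.19 peaks (SD over 248 scaffolds) and the median was 1. Scaffolds with at least 2 peaks, 111 in all, carried 317 of the 454 members. For scale, the chromosomes carried between 710 and 1624 peaks each. Scaffolds without any peak are absent from such a list by construction, so these numbers describe only scaffolds on which something was called open.

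**Figure D1:**
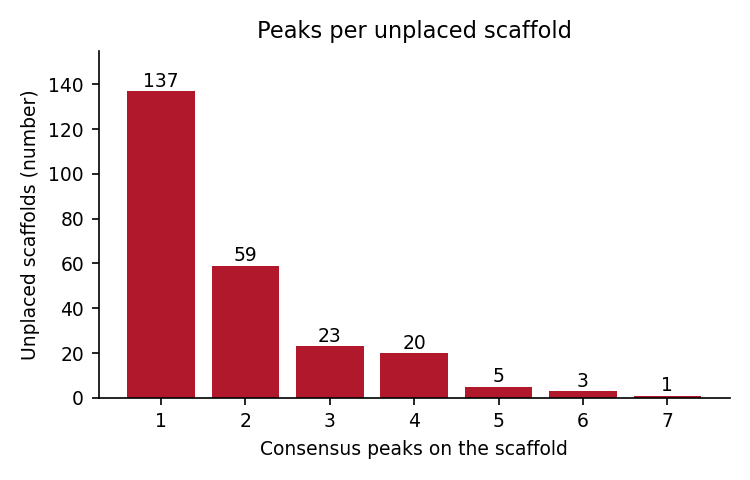
Number of unplaced scaffolds (vertical axis) by the number of consensus peaks found on them (horizontal axis). The bars fall steeply after 1 peak, from 137 scaffolds with 1 peak to 1 scaffold with 7.

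No small group of scaffolds dominated. The 10 scaffolds with the most peaks held 54 peaks, or 11.9% of the members. The scaffold with the most, chrUn_KN150442v1, had 7 peaks between 5228 and 61392. They spanned 5228 to 5474, 22549 to 23017, 27260 to 27514, 35880 to 36318, 37753 to 38296, 38714 to 39145 and 61057 to 61392. Those from 35880 to 39145 formed a tight group of 3 peaks within 3.27 kb, while the last peak stood 21.9 kb from its nearest neighbour. Their widths lay between 247 and 544 bp, with a median of 432 bp.

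Of the 3 scaffolds with 6 peaks, chrUn_KN150702v1 was the most evenly filled. Its peaks spanned 28974 to 29421, 61804 to 62118, 102338 to 102618, 111669 to 112014, 154770 to 155205 and 176973 to 177349. No 2 of these lay closer than 9.05 kb. On chrUn_KN150487v1 the peaks spanned 15268 to 15884, 17398 to 17719, 30021 to 30225, 31250 to 31550, 38584 to 38894 and 91907 to 92238, so that 5 of them shared the first part and 1 followed after 53.0 kb. The third, chrUn_KN150529v1, had peaks at 2066 to 2383, 14677 to 14878, 15103 to 15449, 16052 to 16740, 68436 to 68651 and 80296 to 80644.

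The scaffolds with 5 peaks differed widely in how far these reached. On chrUn_KN150001v1 all 5 lay within 10.2 kb, and on chrUn_KN150627v1 within 16.4 kb. On chrUn_KN150079v1 they took up 36.1 kb. On chrUn_KN149790v1 they were spread over 100 kb and on chrUn_KN150207v1 over 103 kb. The tenth scaffold, chrUn_KN150460v1, was chosen among those with 4 peaks because its peaks reached farthest. Its first peak began only at 155567 and its last ended at 231337.

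**Figure D2:**
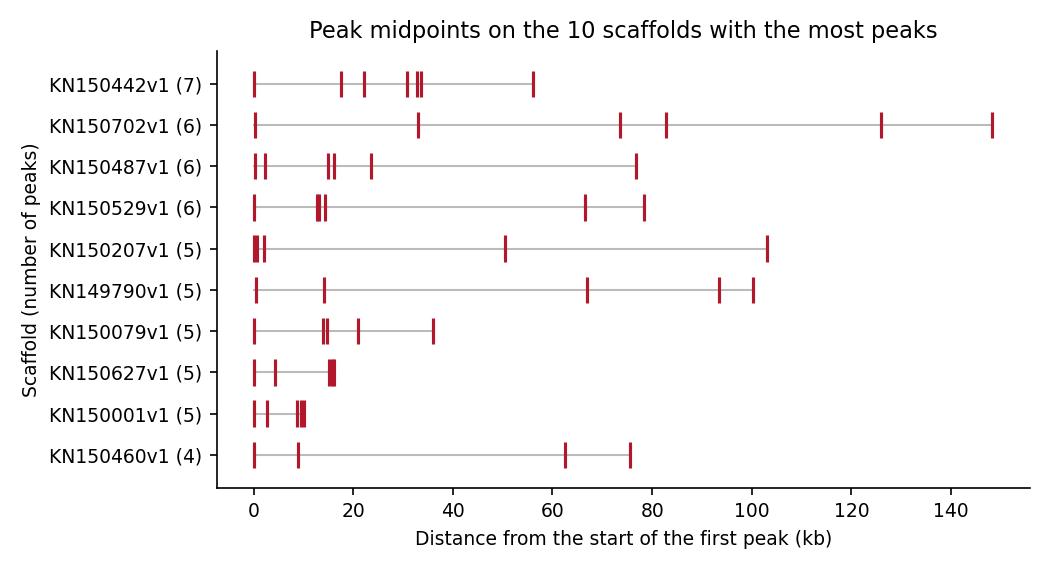
Peak midpoints (red ticks) on the 10 scaffolds with the most peaks, as distance in kb from the start of the first peak of the scaffold, with the number of peaks in brackets. Grey lines join the first to the last peak and do not show the scaffold's length. The 5 peaks of KN150001v1 lie within 10.2 kb, and the 6 of KN150702v1 take up 148 kb.

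The positions reached along the scaffolds were low. The highest peak end per scaffold had a median of 16.3 kb and quartiles of 7.46 and 36.5 kb. It was under 10 kb on 93 scaffolds and over 100 kb on 11. The farthest of all was on chrUn_KN150681v1, which held only 2 peaks, at 255563 to 255815 and at 266471 to 266790. A long reach therefore did not need many peaks. Across the 248 scaffolds the number of peaks and the highest end were related with a Pearson r of 0.44 and a Spearman rho of 0.42, given as a description, since a further peak on a scaffold can only leave the highest end equal or raise it. The median highest end was 9.76 kb on scaffolds with 1 peak, 16.2 kb with 2, 32.3 kb with 3 and 42.1 kb with 4. Scaffold lengths are not part of the list, and the highest end is only the least length a scaffold can have. Summed over the listed scaffolds it came to 7.12 Mb, which limits the density on them to at most 63.8 peaks per Mb. This limit cannot be set against the density on chromosomes, because stretches behind the last peak and scaffolds without a peak are missing from it.

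Peaks were also found at the very start of scaffolds. The first peak began at a median of 9.18 kb (quartiles 2.60 and 22.2 kb), within the first 5 kb on 83 scaffolds and within the first 1 kb on 33. On 3 scaffolds it began at the first base. These peaks were 243 bp wide on chrUn_KN149861v1, 240 bp on chrUn_KN150564v1 and 244 bp on chrUn_KN150368v1, where it was the only peak. An accessible site at such a place may continue in sequence that the assembly does not join to the scaffold, so its true width is not known. On chromosomes 0 peaks began at the first base, but only 25 chromosome starts stand beside 248 scaffold starts. The lowest start there was 81, on chromosome 16, and the second lowest was 345, on chromosome 24. Chromosomes 3 and 20 also had a first peak within the first 1 kb, and chromosomes 4, 6, 8, 9 and 10 within the first 5 kb. Early first peaks were therefore not particular to scaffolds, and no difference was tested. The 3 scaffold peaks at the first base are listed with a start of 0, a value that a list counted from 1 cannot hold.

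A typical scaffold peak was as wide as a typical chromosome peak. The median width was 319.5 bp (95% interval from order statistics 311 to 328 bp) on scaffolds and 316 bp on chromosomes 1 to 25, whose own medians ranged from 308 bp on chromosome 4 to 321 bp on chromosome 2. The quartiles were 258 and 391 bp on scaffolds and 264 and 390 bp on chromosomes. Peaks of exactly 200 bp, the least width in the set, made up 3.74% of the scaffold peaks (17 peaks, 95% Wilson interval 2.35 to 5.91%), against 3.30% of the chromosome peaks and 1.81 to 4.36% on single chromosomes. Each of these values lay within the range over the 25 chromosomes.

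Moderately wide peaks took a larger share on scaffolds. Of the scaffold peaks, 34 were at least 600 bp wide, or 7.49% (95% Wilson interval 5.41 to 10.3%). On chromosomes the share was 4.27%, with 2.71% on chromosome 11 as the lowest and 6.96% on chromosome 7 as the highest, so the scaffolds stood above all 25. At a width of at least 500 bp the shares were 12.1% on scaffolds and 9.16% on chromosomes, and at 800 bp 2.42% and 1.03%. Both scaffold shares were above each of the 25 chromosomes, of which chromosome 7 was highest with 11.9% and 2.09%. The 500 bp share has a 95% Wilson interval of 9.43 to 15.4%, which includes the value of chromosome 7. The 800 bp share rests on 11 peaks (95% Wilson interval 1.36 to 4.29%). These counts share peaks with the one at 600 bp and are not separate observations. At 400 bp the shares, 23.1% on scaffolds and 22.5% on chromosomes, were close together. The interval for peaks of at least 600 bp includes the value of chromosome 7, and the difference was not tested, because 1 merged peak set has no replicates and neighbouring peaks are not independent.

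The 34 peaks of at least 600 bp lay on 33 scaffolds, with 2 of them on chrUn_KN149790v1. All 454 members lay on 248 scaffolds with at most 7 each, so this spread does not set the wide peaks apart. Of the wide peaks, 9 were alone on their scaffold, against 137 (30.2%) of all members. A neighbour within 5 kb was found for 12 of them, against 152 (33.5%) of all members. The widest was on chrUn_KN149842v1 from 13562 to 14562 (1001 bp), where it followed another peak after 120 bp. Next came peaks on chrUn_KN150698v1 from 23842 to 24778 (937 bp), on chrUn_KN150617v1 from 66126 to 67037 (912 bp), on chrUn_KN149760v1 from 28404 to 29303 (900 bp) and on chrUn_KN149790v1 from 804 to 1675 (872 bp). Very wide peaks were rare in both. On scaffolds 1 peak was wider than 1000 bp, against 82 on chromosomes, where the widest peak measured 4037 bp. As a share this was 0.220% of the scaffold peaks (95% Wilson interval 0.0389 to 1.24%) and 0.321% of the chromosome peaks, which differ by less than the counting error.

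**Figure D3:**
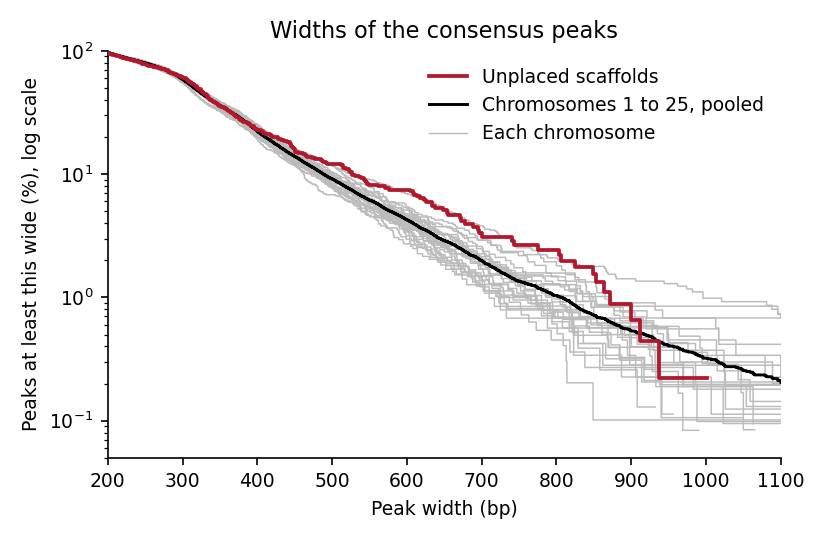
Share of peaks at least as wide as the width on the horizontal axis (bp), on a log scale, for scaffolds (red), all chromosomes (black) and each chromosome (grey). The curves run together up to about 400 bp, the red curve lies above the black one at 600 and 800 bp (7.49 and 2.42% on scaffolds, 4.27 and 1.03% on chromosomes) and it ends at 1001 bp.

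In the plain count, peaks with a neighbour within 5 kb took a smaller share on scaffolds than on any chromosome. Of the 454 members, 152 (33.5%, 95% Wilson interval 29.3 to 37.9%) had another peak within 5 kb, measured from end to start, against 41.9% of the chromosome peaks and 37.4 to 46.1% on single chromosomes. A further 137 members had no neighbour at all because they were alone on their scaffold. Among the 317 others the share was 47.9%, which had to be higher because only members without a neighbour were left out. Over all members, the plain share within 20 kb was 59.7% on scaffolds and 69.5% on chromosomes, with all 25 chromosomes higher. Within 2 kb it was 23.6% and 25.4%, and 5 of the 25 chromosomes were lower than the scaffolds. At less than 500 and 200 bp the scaffold share was the higher one, as given below. A scaffold that ends soon after a peak hides any neighbour beyond its end. On the lower side this can be avoided, since the start of each scaffold is known. Among the 360 members that began at least 5 kb from the scaffold start, 74 (20.6%, 95% Wilson interval 16.7 to 25.03%) had a lower neighbour within 5 kb, against 25.6% on chromosomes and 22.4 to 29.7% on single chromosomes. The value lay below all 25 chromosomes, but its interval reaches into their range. Within 2 kb, measured in the same way, the shares were 14.2% on scaffolds and 14.4% on chromosomes. Within 20 kb they were 40.2% (95% Wilson interval 33.3 to 47.5%, n = 179 peaks) on scaffolds and 48.6% on chromosomes. These one-sided counts were added after the plain ones had been seen.

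The 206 gaps between neighbouring scaffold peaks had a median of 7.16 kb (95% interval from order statistics 5.48 to 8.60 kb), with quartiles of 1.47 and 15.9 kb and a largest gap of 82.0 kb. On chromosomes the median gap was 21.3 kb and the largest 2477 kb, but a gap cannot exceed the scaffold that holds it. With both sets restricted to gaps of at most 20 kb, which kept 166 gaps on scaffolds, the medians were 4.54 kb (95% interval from order statistics 2.84 to 6.33 kb) on scaffolds and 4.53 kb on chromosomes. The chromosomes ranged from 3.72 to 5.36 kb. Of these gaps, 24.7% on scaffolds (95% Wilson interval 18.8 to 31.8%) and 18.1% on chromosomes were under 1 kb. Single chromosomes had 13.9 to 23.8%. Scaffold lengths are unknown, so scaffold ends may still limit gaps below 20 kb. The near-equal medians therefore do not show equal spacing, and no difference in gaps was tested.

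At the short end, 12 pairs of scaffold peaks were separated by less than 200 bp, about the length of DNA that a single nucleosome and its linker take up. They lay on 12 different scaffolds. The closest pair, on chrUn_KN149934v1 at 8796 to 8995 and 9015 to 9214, was only 19 bp apart, and both peaks had the least width of 200 bp. Next came a pair with a gap of 96 bp on chrUn_KN150593v1 (10129 to 10510 and 10607 to 11052) and a pair with 98 bp on chrUn_KN150627v1 (17054 to 17299 and 17398 to 17769). In 3 of the 12 pairs 1 peak was at least 600 bp wide, but no matching count was made for pairs farther apart or on chromosomes. In all, 5.29% of the scaffold peaks had a neighbour less than 200 bp away (24 peaks, 95% Wilson interval 3.58 to 7.75%), against 3.03% of the chromosome peaks and 1.67 to 4.26% on single chromosomes. Counted on the lower side only, among peaks that began at least 200 bp from the start, the shares were 2.70% on scaffolds (95% Wilson interval 1.55 to 4.65%) and 1.52% on chromosomes. Both values rest on the same 12 pairs and stood above all 25 chromosomes with intervals that overlap their range. The interval of 3.58 to 7.75% counts both peaks of each pair as independent and is too narrow. With a distance of less than 500 bp the shares were 11.5% on scaffolds and 9.55% on chromosomes, and 2 of the 25 chromosomes were higher than the scaffolds. None of these differences was tested.

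**Figure D4:**
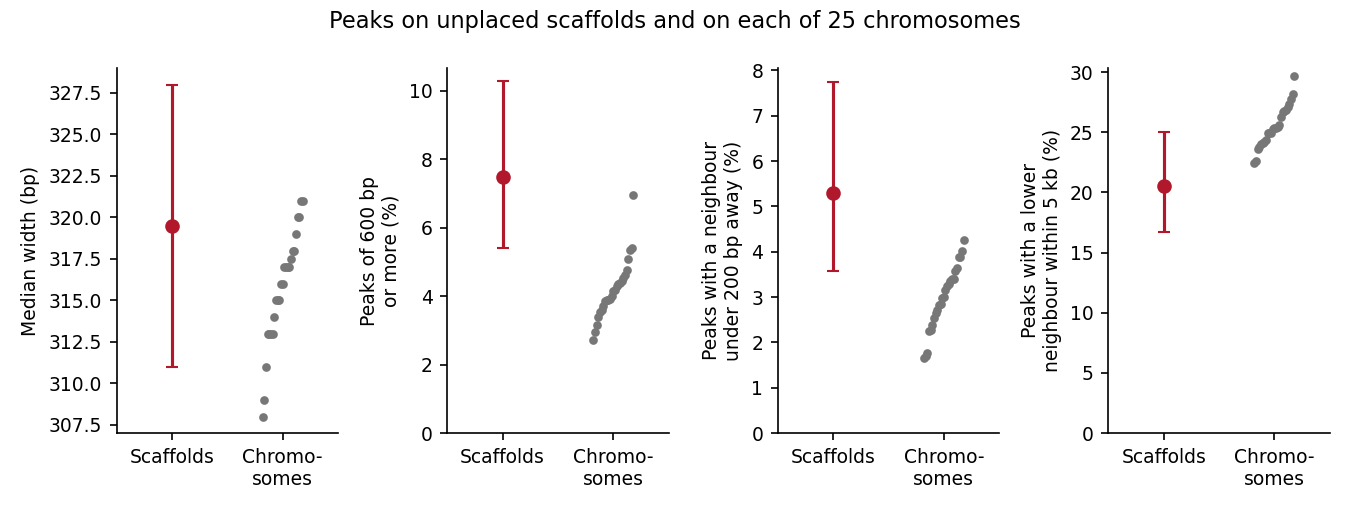
Median width and 3 shares of peaks on unplaced scaffolds (red, with 95% interval) and on each of 25 chromosomes (grey). In each panel the chromosomes stand in ascending order of the value shown, not of chromosome length. The interval for neighbours under 200 bp counts both peaks of each pair and is too narrow. The median width lies within the range of the chromosomes, the shares of wide peaks (7.49%) and of peaks with a neighbour under 200 bp away (5.29%) lie above it, and the share with a lower neighbour within 5 kb (20.6%) lies below it.

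Runs of neighbouring peaks on scaffolds were short. With gaps of at most 2 kb, 11 runs held 3 peaks, 37 held 2, and 0 held 4 or more. On chromosomes, 3.03% of the peaks lay in 166 runs of 4 or more. The 2 cannot be compared directly, since 324 of the 454 members lay on scaffolds with fewer than 4 peaks and could not be part of such a run. Runs of exactly 3 took 7.27% of the scaffold peaks and 5.13% of the chromosome peaks. The chromosome share leaves out the 3.03% of peaks in longer runs, so these 2 shares do not show an excess of runs on scaffolds. The shortest run of 3 was on chrUn_KN149934v1 from 8796 to 9728, within 0.933 kb, and included the closest pair. Other short ones were on chrUn_KN150627v1 from 16397 to 17769 and on chrUn_KN150001v1 from 14739 to 16360. Scaffold ends can cut a run as they can hide a neighbour, and this effect on runs was not measured.

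The members also differed along the list itself. The chromosomes come first and in alphabetical order, but the scaffolds do not follow in a single sorted series. Their names ascend, drop back and ascend again, which divides them into 7 blocks of 14, 180, 22, 6, 1, 22 and 3 scaffolds. Peaks on scaffolds of the first block were the widest, with a median of 368 bp (95% interval from order statistics 312 to 419 bp, 43 peaks), and their scaffolds held 3.07 peaks on average. The second block, with 348 peaks, had a median of 326.5 bp (319 to 335 bp) and 1.93 peaks per scaffold. In the third and the sixth block the medians were 301 bp (236 to 318 bp, 27 peaks) and 241.5 bp (222 to 253 bp, 24 peaks), with 1.23 and 1.09 peaks per scaffold. The fourth block had 8 peaks with a median of 246.5 bp, the next block 1 peak of 215 bp and the last 3 peaks of 200 to 215 bp.

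The first 2 blocks held 391 of the 454 members and all 34 peaks of at least 600 bp, a share of 8.70% (95% Wilson interval 6.29 to 11.9%). In the remaining 5 blocks the widest of 63 peaks measured 473 bp. A share of 0 among 63 peaks has a 95% Wilson interval of up to 5.75%, which includes the 4.27% on chromosomes. Of these 63 peaks, 6 (9.52%) had the least width, against 11 peaks (2.81%) in the first 2 blocks. Over all members this share was 3.74%, on chromosomes 3.30% and on single chromosomes 1.81 to 4.36%. The 9.52% rests on only 6 peaks and the difference was not tested. All 12 pairs less than 200 bp apart were in the first 2 blocks, but so were 197 of the 206 gaps. The median highest end was 18.9 kb in the first block, 16.2 kb in the second, 18.2 kb in the third and 24.6 kb in the sixth. The division after the second block was chosen after the widths had been seen and falls where peaks of at least 600 bp end. The intervals of the wide shares in these 2 parts do not allow for that choice. The blocks were noticed after the list had been opened and carry no label. Their number, 7, equals the number of wild-type stages that were merged into the list. Whether the blocks reflect the order of that merging was not tested, and no stage was assigned to any of them.

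**Figure D5:**
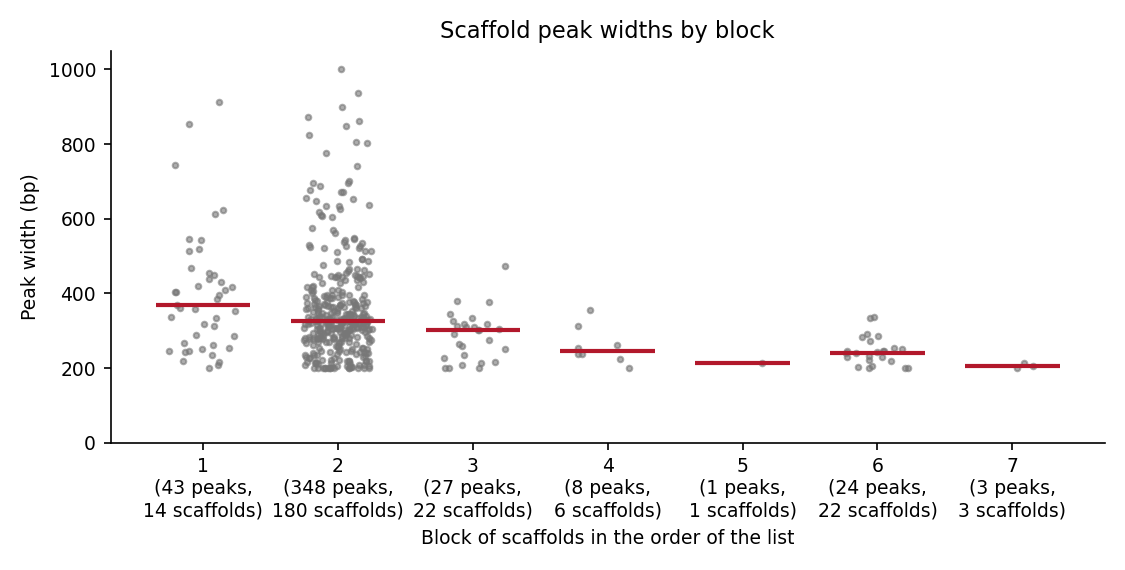
Width in bp of each scaffold peak (grey points, spread sideways at random) by the block of the list that holds its scaffold, with the median (red line). Peaks of 600 bp or more occur in blocks 1 and 2 only, where the medians are 368 and 326.5 bp, and the 24 peaks of block 6 have a median of 241.5 bp.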

How the data were processed

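The data were the positions, in base pairs, of the consensus peaks that the authors deposited, with no other value. According to the study's methods and the submitters' processing notes, the authors trimmed reads with cutadapt 1.9.1 and aligned them with Bowtie2 2.2.4 to Zv10. They dropped duplicates, mitochondrial reads and alignments of low quality, and shifted read ends for Tn5. They called peaks of short fragments with MACS2 2.1.1 against naked DNA by stage, kept those seen in each replicate and joined overlapping ones across wild-type stages.

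Here, widths, gaps (end to next start) and positions per scaffold were computed with pandas 2.3.3 and numpy 2.4.6 in Python 3.11.15, intervals with scipy 1.17.1 and figures with matplotlib 3.10.9. The listed starts count from 0. Library depth is unknown, and intervals cover counting error only and treat peaks as independent. No difference was tested, since the set has no replicates. Values on scaffolds were instead set beside the range over 25 chromosomes. The functions were tested on simulated peaks. Regions named are the 10 scaffolds with the most peaks (ties by reach), all peaks of the 3 with the most (4 are given, since 3 tie), the 5 widest, the closest pair, the farthest reach and the 3 nearest a start. Other pairs, the runs and the blocks were chosen after their values were seen. The members and measures were chosen with earlier results of these data known. Alternatives were merging, other thresholds and subsets. Genes, promoters and base composition were planned but need Zv10 sequence or annotation and were not run.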

Additional observations from a re-analysis of the deposited data

How the results depend on the processing

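Of 40 alternative values, 28 stayed within the 95% interval of the reported value or, for the number of peaks, within 1.5 times of it, and 12 moved. This tally does not measure robustness. The median gap on scaffolds with 2 or more peaks could not change, since scaffolds with 1 peak have no gap. Other thresholds, the limit of 20 kb on gaps and the lower side alone give different quantities. Of the 40, 6 were chosen after seeing the data. Merging across gaps of up to 500 bp raised the share of peaks of at least 600 bp to 12.4% on scaffolds and 8.50% on chromosomes and lowered the share with a neighbour within 5 kb to 24.4% and 36.3%, by joining neighbours. Other thresholds gave 23.1% at 400 bp, 0.220% at 1000 bp, 23.6% with a neighbour within 2 kb and 59.7% within 20 kb. The same thresholds gave 22.5%, 0.321%, 25.4% and 69.5% on chromosomes. With gaps of at most 20 kb the median was 4542.5 bp on scaffolds and 4526 bp on chromosomes. The lower side alone gave 20.6% within 5 kb and 40.2% within 20 kb on scaffolds, against 25.6% and 48.6% on chromosomes. With only scaffolds of 2 or more peaks, the share within 5 kb was 47.9% and the median highest end was 24.2 kb. That subset drops only peaks without a neighbour, so its share had to rise and cannot be set against the 41.9% on chromosomes. The first 2 blocks alone had a median width of 331 bp, above all chromosomes, but they were chosen after their widths had been seen. Leaving out the scaffold with the most peaks moved no value. No paired analysis was possible because the positions carry no values by replicate. Leaving out a replicate was not possible either.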
